A study of Homo sapiens with 6 samples.

Results

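Homologous recombination and Fanconi anemia genes were followed in 22Rv1 prostate cancer cells that survived repeated DNA damage. The group was defined by a list of 36 gene symbols among the 29804 symbols of the count table. All 36 had a row, and 36 of 36 passed the filter on low counts that left 14672 genes for testing. RNA was sequenced from 3 groups of 2 libraries each. 22Rv1 is an established epithelial prostate carcinoma line, and the labels give the same genotype (WT) to every library. WT cells were taken at week 0 with no drug. AM (age matched) cells were grown for 6 weeks without drug, and 6WP cells were grown for the same 6 weeks with phleomycin at 1 µg/ml on week days, washed off after 1 hour. Phleomycin cuts DNA much as ionising radiation does. The 6WP libraries hold the whole surviving population of 1 cell line and not single clones, and as bulk RNA they cannot tell fewer cells of a kind from less RNA per cell.

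Homologous recombination copies a broken DNA end from the intact sister chromatid. Nucleases trim the end to a single strand, the BRCA proteins prepare that strand for pairing, strand exchange factors help it find and invade the matching strand, and helicases and nucleases take the joined molecules apart. The Fanconi anemia proteins recognise DNA crosslinks at stalled forks, attach ubiquitin to the FANCD2 and FANCI pair and hand the lesion to the same machinery. Both pathways work mainly in S and G2 phase, and many of their genes are transcribed together with the genes of DNA replication. Defects in several of them are known in prostate cancer.

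The deposited values were raw counts per gene symbol, and totals ranged from 21222201 to 35311945 counts per library. A floor of 3 counts corresponded to 0.085 to 0.141 CPM when scaled by the raw library total alone. The CPM values of genes are counts scaled to the library total and TMM normalized. The floor covers counting error only, and all 36 genes lay above it in every library. All 9 luminal prostate epithelial markers were detected, among them KRT8, KRT18 and EPCAM. Of these 9, none was called by edgeR between 6WP and WT (4 with an unadjusted p under 0.05). In 6WP against AM 2 were higher and 1 lower, beside 11.7% and 9.68% of all tested genes. In AM against WT 1 was higher and 4 lower, beside 7.74% and 9.93% of all tested genes. Of 10 markers of other cell types PTPRC, CD3E, CDH5 and KRT5 were at 0 counts in every library, the 4 that could be tested summed to between 5.09 and 6.79 CPM, and 0 of these 4 were called in any comparison (0, 1 and 1 with an unadjusted p under 0.05).

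The 6WP libraries differed from each other more than those of the other groups. In 6WP cells 31 of 36 genes were lower in replicate 2 than in replicate 1, with a median log2 difference of -0.48, while the median over all tested genes was -0.01 and 50.6% of them were lower. The same difference had a median of -0.12 over the 36 genes between the WT libraries and of -0.01 between the AM libraries. Relative to WT, 6WP replicate 1 had 14 genes below both WT libraries, 7 between them and 15 above both. The second 6WP library had 28 below, 3 between and 5 above. Against AM the libraries were closer, with 25 genes below both AM libraries in 6WP replicate 1 and 29 in replicate 2. The number of the 36 genes called in each comparison is therefore given with and without a 6WP library. Counts for the roles and the other lists, and counts of genes without overlap between 6WP and another group, use both 6WP libraries.

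**Figure D1:**
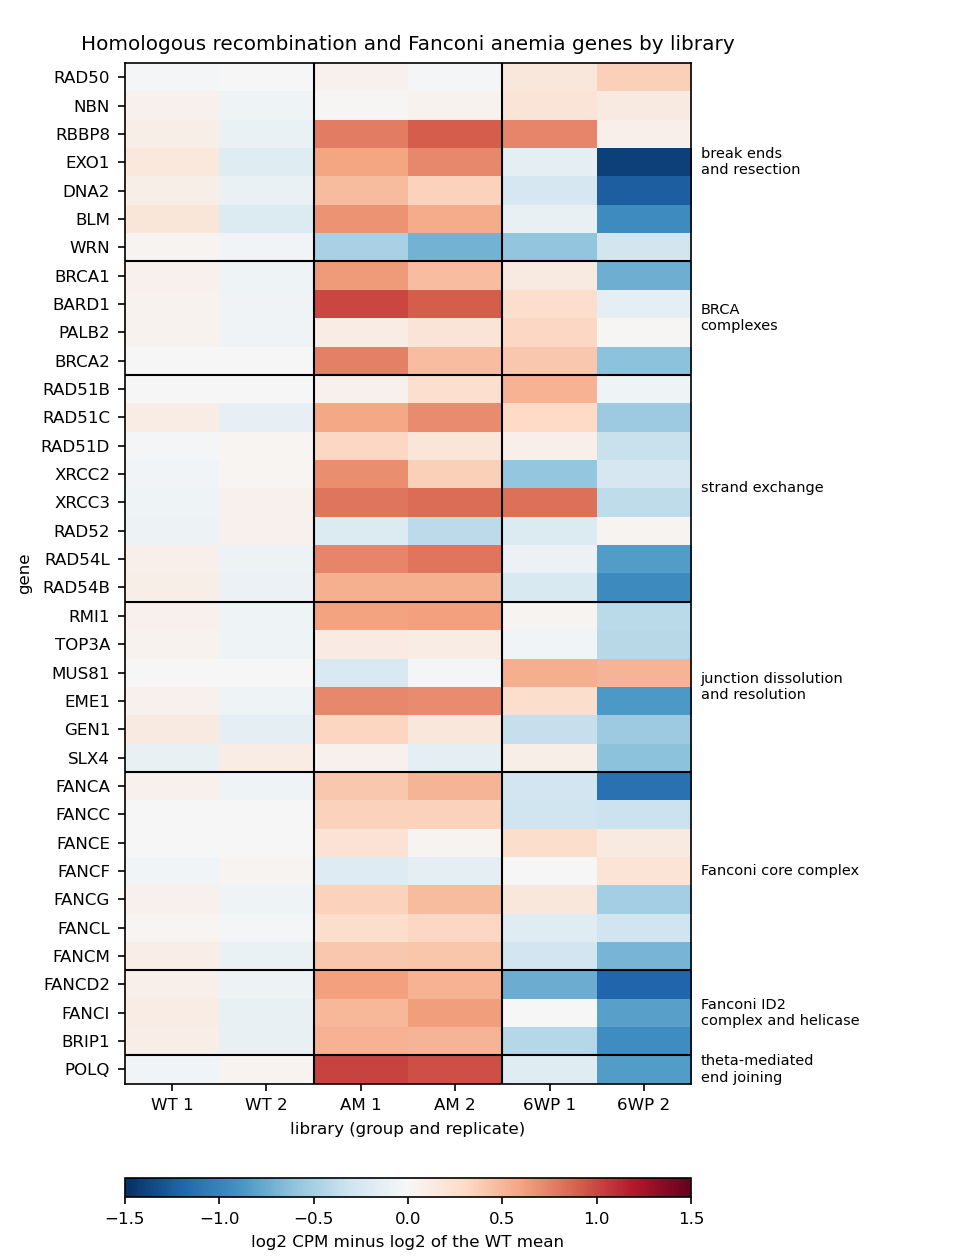
Heat map of the 36 genes (rows, grouped by role) in the 6 libraries (columns). The colour gives log2 CPM minus the log2 of the WT mean, red above and blue below; the AM columns are mostly red, with a median of 0.44 in both, and the 6WP columns have medians of 0.01 in replicate 1 and -0.46 in replicate 2.

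Expression was lower in 6WP cells than in AM cells, the control grown for the same time, for a large share of the group. Of the 36 genes, 17 were lower in 6WP cells and 1 was higher (edgeR quasi-likelihood test, Benjamini-Hochberg adjusted p under 0.05 over all 14672 genes). Among all tested genes 9.68% were lower and 11.7% higher. The median log2 fold change was -0.66 over the 36 genes and 0.05 over all genes, and single genes ranged from -1.52 to 0.64. Both 6WP libraries lay below both AM libraries for 25 genes and above them for 4, where 28.5% of all genes lay below and 33.8% above. Without 6WP replicate 2 the count was 20 lower and 1 higher, beside 17.5% and 16.0% of all genes. Without 6WP replicate 1 it was 27 lower and 3 higher, beside 22.4% and 23.4% of all genes, and in both fits the lone 6WP library was assumed to vary like the other groups. In a fit to only these groups 11 were lower and 0 higher, beside 4.44% and 4.63% of all genes. Without an AM library most calls of the main fit were lost, and fewer were made without a WT library. Calls over all genes fell in each of these fits as well. The median of the 36 minus that of all genes was -0.71 in the main fit. It was -0.68 without AM replicate 1, -0.75 without AM replicate 2 and -0.72 with WT replicate 1 or WT replicate 2 left out.

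Against WT cells at week 0 the difference was small. No gene was higher in 6WP cells and 1, FANCD2, was lower, where 1.63% of all tested genes were higher and 1.37% lower in the same test. The median log2 fold change was -0.22, against 0.01 for all genes, with a range of -0.95 to 0.52. The unadjusted p-value was under 0.05 for 12 of the 36, a count with no share of all genes to set beside it. The Wald test of DESeq2 called 1 gene higher and 2 lower, near its background of 3.48% and 3.84% of all genes. Both 6WP libraries were below both WT libraries for 13 genes and above them for 4, against 25.2% and 25.5% of all genes. This comparison turned on the 6WP library used, with 5 genes lower and 4 higher without 6WP replicate 2, where 13.5% of all genes were called lower and 12.4% higher, so that these counts were near the background. Without 6WP replicate 1 it was 21 lower and 2 higher, beside 14% and 11.2% of all genes. In a fit to only the WT and 6WP groups 0 genes were called, beside 0.413% of all genes higher and 0.248% lower. Without a WT or an AM library the call of FANCD2 was lost, and calls over all genes fell as well. The median of the 36 minus that of all genes was then between -0.29 and -0.18.

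AM cells, grown for 6 weeks without drug, had mostly positive estimates against WT cells. In AM cells 6 genes (BARD1, POLQ, RBBP8, RMI1, FANCD2 and RAD54L) were higher than in WT cells and 1 (WRN) was lower, where 7.74% of all genes were higher and 9.93% lower. The median log2 fold change was 0.43, against 0.00 for all genes, and 31 of 36 estimates were positive. Both AM libraries lay above both WT libraries for 29 genes and below them for 4, and for all tested genes these shares were 36.9% and 36.9%. Without either 6WP library, or in a fit to only WT and AM, 23 genes were called higher and 1 lower, but calls over all genes grew as well, to between 21.6% and 23.8% higher and between 21.4% and 22.7% lower. Without a WT or an AM library the calls named above were lost, and calls over all genes fell steeply as well. The median of the 36 minus that of all genes was then between 0.36 and 0.52. The 3 comparisons share their control libraries, so a high AM level lowers one and raises another. Across all of them, 12 genes had both AM libraries above and both 6WP libraries below the WT pair, an order shown by 6.62% of all tested genes. These were DNA2, XRCC2, RAD54L, RAD54B, GEN1, FANCA, FANCC, FANCL, FANCM, FANCD2, BRIP1 and POLQ.

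**Figure D2:**
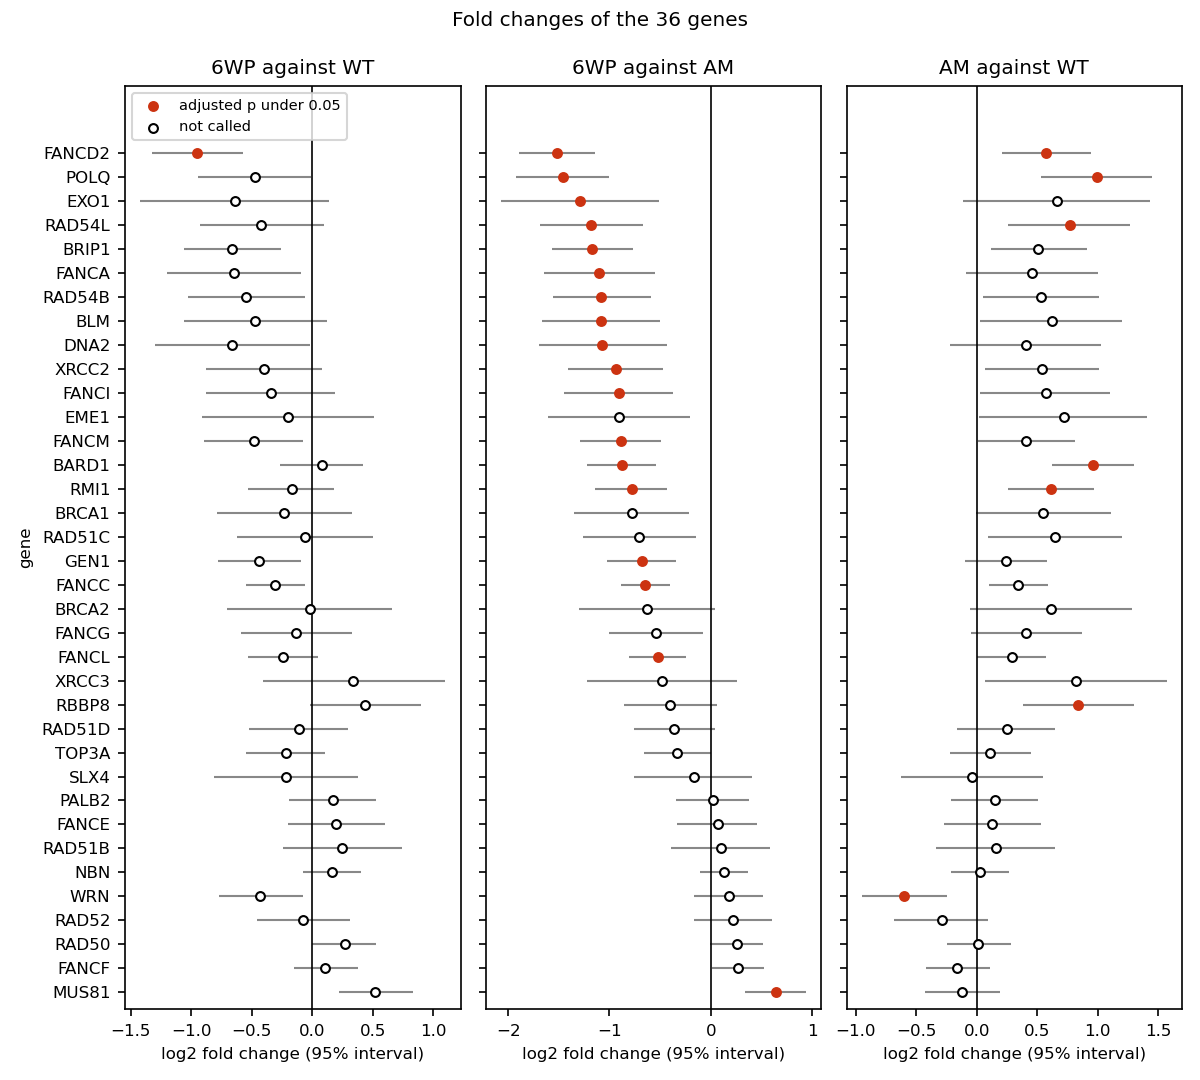
Log2 fold change of each gene (points) with its 95% confidence interval (lines) in the 3 comparisons, with genes ordered by their change in 6WP against AM. Filled points passed an adjusted p-value of 0.05: 1 gene in 6WP against WT, 18 in 6WP against AM and 7 in AM against WT.

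FANCD2 had the lowest value of the group in both 6WP comparisons. Together with FANCI it forms the clamp that is monoubiquitinated at crosslinks, the step on which the Fanconi pathway turns. Its gene lies at chr3:10026370-10101932 on the plus strand (GRCh38, GENCODE annotation), and its promoter, shown because it is the one gene called in all 3 comparisons, carries in capitals a match to the E2F motif letters TTTCCCGC on the opposite strand. The window runs from 250 bases before to 50 after the RefSeq start (GRCh38.p14).
FANCD2 (chr3:10026187-10026486, plus strand): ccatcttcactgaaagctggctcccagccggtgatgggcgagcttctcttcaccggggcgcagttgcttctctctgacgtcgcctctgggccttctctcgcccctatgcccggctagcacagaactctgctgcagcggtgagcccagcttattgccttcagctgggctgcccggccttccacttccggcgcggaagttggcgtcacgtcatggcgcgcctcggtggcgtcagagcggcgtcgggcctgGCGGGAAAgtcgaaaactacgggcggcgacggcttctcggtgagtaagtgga

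FANCD2 was at 45.4 and 40.7 CPM in WT, 66.3 and 61.7 CPM in AM, and 25.8 and 18.9 CPM in 6WP cells. The groups did not overlap, and both 6WP libraries lay below every other library. Its log2 fold change was -1.52 in 6WP against AM (SE 0.16, adjusted p = 0.00232 by edgeR), or 0.349 of the AM level. This call held in 15 of 15 alternative settings, with an adjusted p of at most 0.0431. Against WT it was -0.95 (SE 0.16, adjusted p = 0.0275), and this call held in 10 of 15 settings with an adjusted p of up to 0.35. AM cells were above WT by 0.57 (SE 0.16, adjusted p = 0.0424), which held in 9 of 15. Without 6WP replicate 2 the FANCD2 values were -1.34 against AM and -0.77 against WT.

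FANCI, the partner in the clamp, was at 131 and 113 CPM in WT, 173 and 189 CPM in AM, and 123 and 69.8 CPM in 6WP cells. The first 6WP library thus lay within the WT range and the second below it. In 6WP against AM FANCI fell by 0.91 on the log2 scale (SE 0.23, adjusted p = 0.0296), and no difference from WT was called (-0.34, adjusted p = 0.421). The log2 ratio of FANCD2 to FANCI counts was -1.54 and -1.47 in WT, -1.38 and -1.62 in AM, and -2.25 and -1.88 in 6WP cells. FANCD2 was thus lower relative to its partner in both 6WP libraries than in the other 4, and no test was made of this ratio.

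BRIP1 (FANCJ), the helicase that binds BRCA1 and unwinds DNA during crosslink repair, was at 39.5 and 34.1 CPM in WT, 52.9 and 52.3 CPM in AM, and 27.4 and 19.3 CPM in 6WP cells. Neither 6WP library reached the level of a control library. BRIP1 fell by 1.17 on the log2 scale in 6WP against AM (SE 0.17, adjusted p = 0.00581). Against WT its value was -0.66 (SE 0.17, adjusted p = 0.083), which the quasi-likelihood test of the main fit did not call. The DESeq2 Wald and edgeR likelihood ratio tests called it, as did the quasi-likelihood test with no filter beyond 1 count. The BRIP1 promoter, on chromosome 17, held none of the exact E2F letters searched. It did hold gcgggaa, which on the opposite strand reads TTTCCCGC without its first T, a form not searched. Its capitals mark CHR letters (TTTGAA or TTTAAA, both strands) and the NF-Y letters CCAAT, which here read ATTGG on the opposite strand.
BRIP1 (chr17:61863479-61863778, minus strand): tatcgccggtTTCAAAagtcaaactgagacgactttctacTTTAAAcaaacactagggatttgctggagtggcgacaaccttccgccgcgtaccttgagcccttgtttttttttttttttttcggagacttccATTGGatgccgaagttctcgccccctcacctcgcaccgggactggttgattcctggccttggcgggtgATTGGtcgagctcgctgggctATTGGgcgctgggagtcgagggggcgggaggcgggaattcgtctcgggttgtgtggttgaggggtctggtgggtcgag

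The Fanconi core complex is the ubiquitin ligase for FANCD2 and FANCI. Of its 7 listed members 4 (FANCA, FANCC, FANCL and FANCM) were lower in 6WP than in AM cells, beside 9.68% of all genes. FANCA, a structural subunit, was at 30.4 and 27.7 CPM in WT, 38.3 and 41.5 CPM in AM, and 23.8 and 13.4 CPM in 6WP cells, a log2 fold change against AM of -1.10 (SE 0.24, adjusted p = 0.0179). Its exons overlap ZNF276 on the opposite strand, which had the other direction (0.95, adjusted p = 0.019). FANCM, the translocase that anchors the complex at the fork, was at 15.9 and 13.8 CPM in WT, 19.6 and 19.8 CPM in AM, and 12.1 and 9.13 CPM in 6WP cells (-0.89, SE 0.17, adjusted p = 0.013 against AM). FANCC had the tightest replicates, with 38.7 and 38.8 CPM in WT, 49.0 and 49.3 CPM in AM, and 31.6 and 31.0 CPM in 6WP cells. Its groups stood apart in the order AM, WT, 6WP, and the change against AM was -0.65 (SE 0.11, adjusted p = 0.00761). FANCL, the catalytic subunit, was at 22.4 and 21.5 CPM in WT, 26.3 and 27.3 CPM in AM, and 19.3 and 17.9 CPM in 6WP cells (-0.52, SE 0.12, adjusted p = 0.0232).

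The other 3 core members gave no call. FANCG was at 79.7 and 73.1 CPM in WT, 96.7 and 106 CPM in AM, and 85.8 and 53.7 CPM in 6WP cells, whose libraries lay on either side of WT. FANCE lay between 6.84 and 8.28 CPM and FANCF between 55.8 and 73.3 CPM over the 6 libraries. FANCF had its lowest values in AM cells, 55.8 and 58.2 CPM, and its difference in 6WP against AM was 0.27 (95% interval 0.01 to 0.53, adjusted p = 0.127).

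POLQ encodes the polymerase of theta-mediated end joining, the route that anneals short matching sequences and can act where recombination is lacking. Its level was 22.4 and 23.8 CPM in WT, 46.4 and 45.2 CPM in AM, and 20.4 and 12.9 CPM in 6WP cells. AM cells were 1.98 times the WT level (log2 0.99, SE 0.20, adjusted p = 0.0159), the largest such value of the 36. In 6WP cells POLQ was 0.363 of the AM level (log2 -1.46, SE 0.20, adjusted p = 0.00473), and the difference from WT was -0.47 (adjusted p = 0.215). The POLQ promoter on chromosome 3 is shown because this second-largest fall went with none of the exact E2F letters searched. The window does hold gcgggaa, the same shortened form as in BRIP1. Its capitals mark CHR letters, once on each strand.
POLQ (chr3:121545939-121546238, minus strand): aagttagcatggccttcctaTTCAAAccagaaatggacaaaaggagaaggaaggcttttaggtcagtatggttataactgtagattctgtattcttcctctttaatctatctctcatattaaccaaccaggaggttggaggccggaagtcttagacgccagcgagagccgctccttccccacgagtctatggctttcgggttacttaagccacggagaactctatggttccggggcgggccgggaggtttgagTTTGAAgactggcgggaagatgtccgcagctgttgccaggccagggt

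**Figure D3:**
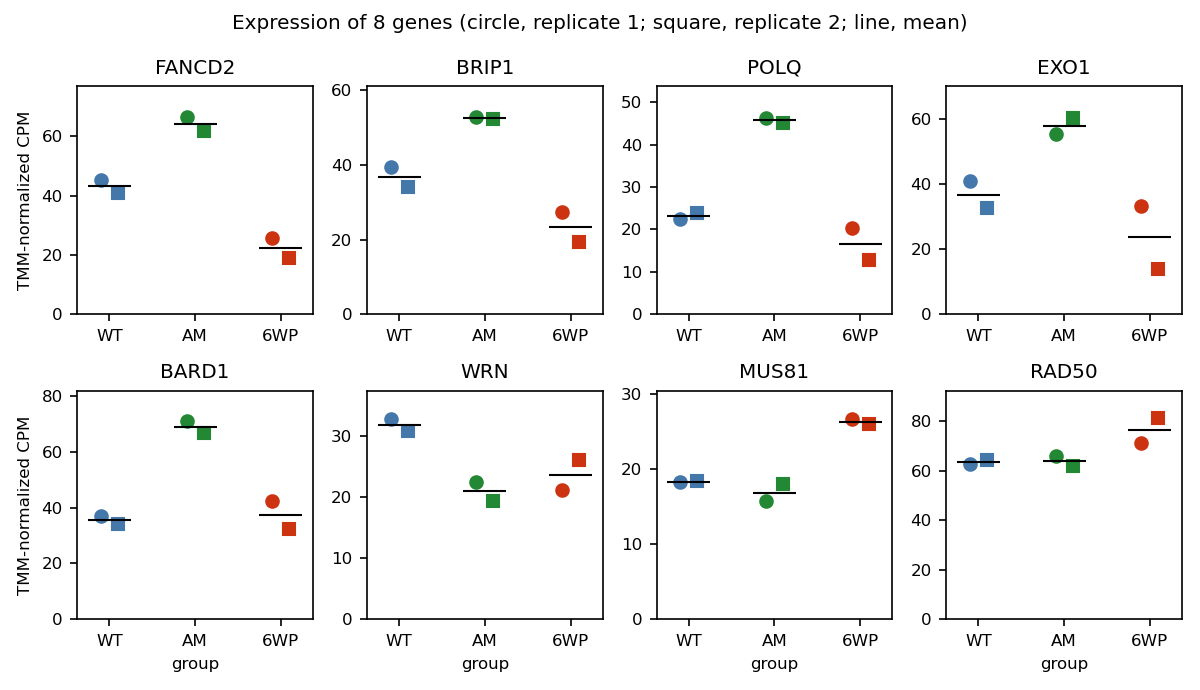
TMM-normalized CPM of 8 genes in WT, AM and 6WP cells, with replicate 1 as circles, replicate 2 as squares and the group mean as a line; axes start at 0. FANCD2, BRIP1 and POLQ had both 6WP libraries below all others, EXO1 shows the gap between the 6WP libraries (33.3 and 13.9 CPM), and MUS81 had both above all others (26.6 and 26.0 CPM).

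Of the 7 genes for the processing of break ends, 3 were lower and none was higher in 6WP than in AM cells. The shares of all genes were 9.68% and 11.7%. RAD50 and NBN, of the complex that first binds and tethers the ends, were not called and had their highest values in 6WP cells, at 71.2 and 81.4 CPM for RAD50 and 130 and 125 CPM for NBN. For NBN the difference was 0.16 against WT (adjusted p = 0.392) and 0.13 against AM (adjusted p = 0.388). RAD50 was at 62.8 and 64.1 CPM in WT and 66.0 and 62.0 CPM in AM cells, and its difference in 6WP against WT was 0.27 (95% interval 0.00 to 0.53, adjusted p = 0.217). The 3 lower genes act in long-range resection. EXO1, an exonuclease, was at 40.9 and 32.5 CPM in WT, 55.3 and 60.3 CPM in AM, and 33.3 and 13.9 CPM in 6WP cells, with a log2 fold change of -1.29 against AM (SE 0.34, adjusted p = 0.0317). DNA2, the nuclease of the other resection route, was at 23.7 and 20.9 CPM in WT, 30.8 and 28.4 CPM in AM, and 18.8 and 9.44 CPM in 6WP cells (-1.07, SE 0.28, adjusted p = 0.0303). The helicase BLM, which works with both, was at 25.7 and 19.8 CPM in WT, 36.2 and 33.5 CPM in AM, and 21 and 11.8 CPM in 6WP cells (-1.08, SE 0.26, adjusted p = 0.0231). In all 3 genes the second 6WP library was well below the first, and without it the changes against AM were -0.83, -0.69 and -0.76.

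RBBP8 (CtIP), which starts resection, was at 79.6 and 69.6 CPM in WT, 127 and 140 CPM in AM, and 124 and 78.8 CPM in 6WP cells. It was at 1.79 times the WT level in AM cells (log2 0.84, SE 0.20, adjusted p = 0.0277), and 6WP cells spanned the range from the WT to the AM level. WRN, the helicase lost in Werner syndrome, was at 32.7 and 30.8 CPM in WT, 22.5 and 19.4 CPM in AM, and 21.1 and 26.1 CPM in 6WP cells. It was the 1 gene called lower in AM against WT (log2 -0.60, SE 0.15, adjusted p = 0.0322). Its 6WP libraries were also both below WT (-0.43, adjusted p = 0.154).

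Of the BRCA genes BARD1 was called. BARD1, the partner that makes BRCA1 a ubiquitin ligase, was at 36.9 and 34.3 CPM in WT, 71.3 and 67.0 CPM in AM, and 42.6 and 32.4 CPM in 6WP cells. It was 1.94 times the WT level in AM cells (log2 0.96, SE 0.15, adjusted p = 0.00765) and fell by 0.88 from AM to 6WP (SE 0.15, adjusted p = 0.00805), and the 6WP libraries lay on either side of WT. BRCA1 was at 72.9 and 66.8 CPM in WT, 109 and 96.3 CPM in AM, and 77.0 and 42.0 CPM in 6WP cells, with -0.78 against AM at an adjusted p = 0.0548. BRCA2, which guides strand exchange, was at 11.3 and 11.2 CPM in WT, 18.9 and 15.4 CPM in AM, and 14.8 and 7.37 CPM in 6WP cells. The 6WP libraries lay above and below WT, and the log2 difference of the groups was -0.02 (95% interval -0.70 to 0.66). PALB2, the bridge between BRCA1 and BRCA2, stayed between 12.4 and 16.0 CPM in all 6 libraries. The log2 ratio of BRCA1 to BARD1 counts was 0.98 and 0.96 in WT, 0.61 and 0.52 in AM, and 0.85 and 0.37 in 6WP cells.

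Among the strand exchange factors, RAD54L, RAD54B and XRCC2 were lower in 6WP than in AM cells. RAD54L, a motor that helps strands to pair, was at 23.2 and 20.7 CPM in WT, 36.5 and 38.2 CPM in AM, and 20.6 and 12.3 CPM in 6WP cells. It rose by 0.77 in AM against WT (SE 0.22, adjusted p = 0.0478) and was lower by -1.18 in 6WP against AM (SE 0.22, adjusted p = 0.0113). Its relative RAD54B was at 38.1 and 33.7 CPM in WT, 52.0 and 51.7 CPM in AM, and 30.6 and 18.6 CPM in 6WP cells (-1.08, SE 0.21, adjusted p = 0.0133). XRCC2, a strand exchange mediator, was at 6.65 and 6.98 CPM in WT, 11.1 and 8.77 CPM in AM, and 4.56 and 5.74 CPM in 6WP cells (-0.94, SE 0.20, adjusted p = 0.0179). XRCC2 was 1 of 5 genes whose lower 6WP library was replicate 1, with RAD50, WRN, RAD52 and FANCF. XRCC3 was at 26.9 and 11.6 CPM in 6WP cells, against 14.5 and 15.8 CPM in WT and 26.3 and 27.3 CPM in AM cells, and its log2 difference in 6WP against WT had a 95% interval of -0.41 to 1.10. RAD51C was at 36.1 and 30.7 CPM in WT, 49.9 and 54.6 CPM in AM, and 41.0 and 23.0 CPM in 6WP cells and was not called (-0.71 against AM, adjusted p = 0.071). RAD51B, RAD51D and RAD52 stayed between 9.06 and 14.6 CPM in all libraries, with no call.

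Genes that take joined molecules apart differed in direction. RMI1, a subunit of the BLM dissolution complex, was at 58.7 and 53.8 CPM in WT, 85.5 and 86.5 CPM in AM, and 57.6 and 42.3 CPM in 6WP cells. It was higher in AM than in WT cells (0.61, SE 0.15, adjusted p = 0.0319) and lower in 6WP than in AM cells (-0.78, SE 0.15, adjusted p = 0.0132). GEN1, a nuclease that cuts Holliday junctions, was at 26.0 and 21.6 CPM in WT, 29.6 and 26.8 CPM in AM, and 18.8 and 16.4 CPM in 6WP cells (-0.68 against AM, SE 0.15, adjusted p = 0.0186). MUS81, the catalytic subunit of another junction nuclease, was the 1 gene called higher in 6WP than in AM cells. It was at 18.2 and 18.4 CPM in WT, 15.7 and 18 CPM in AM, and 26.6 and 26.0 CPM in 6WP cells, and was 1.56 times the AM level (log2 0.64, SE 0.13, adjusted p = 0.0153). Its difference from WT was 0.52 (SE 0.13, adjusted p = 0.076). Exons of MUS81 overlap CFL1 on the opposite strand, which lay at 725 to 1150 CPM and at -0.42 in 6WP against AM (adjusted p = 0.056). EME1, the MUS81 partner, was at 13.4 and 12.3 CPM in WT, 21.2 and 21 CPM in AM, and 15.4 and 7.08 CPM in 6WP cells, with no call (-0.91 against AM, adjusted p = 0.0662). The log2 ratio of MUS81 to EME1 counts was 0.44 and 0.59 in WT, -0.44 and -0.22 in AM, and 0.79 and 1.88 in 6WP cells, highest in both 6WP libraries. TOP3A, the topoisomerase of the dissolution complex, lay between 30.5 and 44.3 CPM and the nuclease scaffold SLX4 between 4.51 and 7.44 CPM, without a call.

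Scaled by the length of the canonical transcript, WT levels of the 36 genes ran from 29.9 CPM per kb for FANCG, 25.8 for FANCI, 24.7 for NBN and 22.8 for RBBP8 down to 0.945 for SLX4 and 0.941 for BRCA2. The SDs over 2 WT libraries were 1.83 for FANCG and 2.69 for FANCI, and the order of the genes was not tested. FANCD2 went from 8.45 CPM per kb in WT cells to 12.6 in AM cells and 4.39 in 6WP cells. It stood beside FANCC (8.44) and MUS81 (7.74) in WT and below both in 6WP cells (6.82 for FANCC and 11.1 for MUS81). These levels assume that the canonical transcript is the one expressed.

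Further genes of these pathways, a list of 44 with 43 in the table and 40 tested, had medians of the same sign and of smaller size. Their median log2 fold change was -0.38 in 6WP against AM, -0.14 in 6WP against WT and 0.32 in AM against WT. In 6WP against AM 11 of the 40 were lower and 2 higher, beside 9.68% and 11.7% of all tested genes. The falls included UBE2T, the ubiquitin-conjugating enzyme for FANCD2 (-1.47, adjusted p = 0.0103), FANCB of the core complex (-1.46, adjusted p = 0.00807) and the helicase subunit MCM8 (-1.19, adjusted p = 0.00587). FAM175A (ABRAXAS1), the scaffold of a BRCA1 complex, was higher in 6WP than in AM cells (1.14, adjusted p = 0.013), as was the nuclease subunit ERCC1 (0.70, adjusted p = 0.0133). Against WT 1 of the 40, FANCB, was called, near the background of 1.63% of all tested genes higher and 1.37% lower. FANCB was at 4.15 and 4.27 CPM in WT and 1.99 and 1.62 CPM in 6WP cells (-1.22, SE 0.25, adjusted p = 0.0437). In AM against WT 7 were higher, among them PSMC3IP (0.97), SWI5 (0.95), STRA13 (0.94) and RMI2 (0.66), and 1 was lower, FAM175A (-1.55). The shares of all tested genes were 7.74% higher and 9.93% lower. SLX1A and SLX1B were listed at 0 counts throughout, which cannot tell absent expression from reads that were not assigned to either gene.

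Genes of S phase and mitosis had medians that ordered the AM and 6WP libraries as the repair genes did. The list holds 30 genes, none shared with the 36. Its median relative to the WT mean was 0.59 and 0.64 in the AM libraries, 0.17 in 6WP replicate 1 and -0.88 in 6WP replicate 2, and that of the 36 repair genes was 0.44, 0.44, 0.01 and -0.46. In 6WP against AM 14 of the 30 were lower and 0 higher, beside 9.68% and 11.7% of all tested genes. For 20 the unadjusted p was under 0.05. The median was -0.92, and CDC6 (-1.96), RRM2 (-1.89), CCNE2 (-1.64), TYMS (-1.57) and CCNA2 (-1.37) had the largest falls. Against WT 1 was lower, MCM4 (-0.72, adjusted p = 0.0464), near the background of 1.37% of all tested genes, with a median of -0.28. In AM against WT 10 were higher and 0 lower, beside 7.74% and 9.93% of all tested genes. For 15 the unadjusted p was under 0.05, and the median was 0.62. Whether a different share of dividing cells accounts for the differences in the repair genes was not tested.

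**Figure D4:**
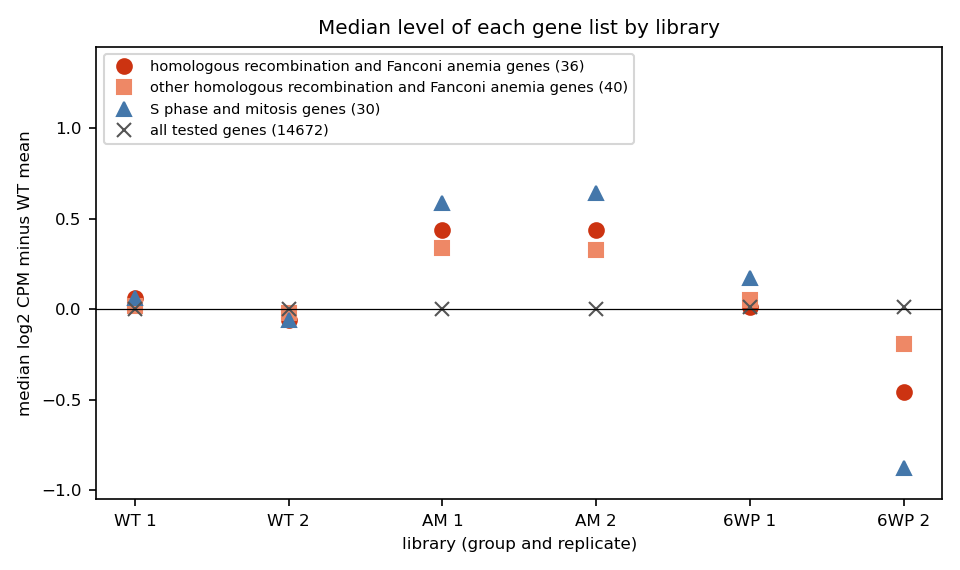
Median log2 CPM minus the WT mean for each gene list (markers) in each of the 6 libraries. All 3 lists were above the WT level in AM cells and separated the 6WP libraries, with S phase and mitosis genes at 0.17 and -0.88, while all tested genes stayed at 0.00 to 0.01.

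Promoter sequence was in the RefSeq table for 31 of the 36 genes, with 300 bases each. NBN, WRN, RAD54B, FANCI and DNA2 had no entry. Letters of the E2F motif (TTTCCCGC, TTTGGCGC, TTTCGCGC or TTTGCCGC, both strands) were in 6 of 31 windows (19.4%), against 908 of 27305 promoters in the table (3.33%). All 6 belonged to the 14 windows of genes lower in 6WP than in AM cells (42.9%), and the other 17 windows held none of these exact letters. Other forms of the E2F motif were not searched, so a window without a match may still hold one. The NF-Y letters CCAAT were in 10 of 31 windows (32.3%) and 35.7% of all promoters, with 6 of the 14 (42.9%) and 4 of the 17 (23.5%). The CHR letters were in 5 of 31 (16.1%) and 24.3% of all, with 4 of the 14 (28.6%) and 1 of the 17 (5.88%). The E2F matches other than that of FANCD2 are given with 20 bases on either side, 5′ to 3′ on the gene's strand, with the match in capitals. FANCC held a pair of them.
EXO1 (chr1:241848188-241848235, plus strand): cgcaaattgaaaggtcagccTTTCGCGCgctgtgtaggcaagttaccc
FANCA (chr16:89816792-89816839, minus strand): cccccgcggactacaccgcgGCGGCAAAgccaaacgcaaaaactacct
FANCC (chr9:95317854-95317901, minus strand): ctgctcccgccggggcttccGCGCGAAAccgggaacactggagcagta
FANCC (chr9:95317728-95317775, minus strand): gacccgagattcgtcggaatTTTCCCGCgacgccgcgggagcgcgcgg
GEN1 (chr2:17753850-17753897, plus strand): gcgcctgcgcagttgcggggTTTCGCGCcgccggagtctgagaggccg
XRCC2 (chr7:152676093-152676140, minus strand): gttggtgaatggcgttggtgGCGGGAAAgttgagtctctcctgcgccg

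These are the resection gene EXO1, the core complex genes FANCA and FANCC, the junction nuclease GEN1 and the strand exchange gene XRCC2, with changes of -1.29, -1.10, -0.65, -0.68 and -0.94 in 6WP against AM. A match is a run of letters and not a bound site, and no window was tested for binding here. Of the 36 genes, 7 share exon sequence with another gene on the same strand, 21 with one on the opposite strand (some with both) and 11 with none, and 4 (FANCD2, BRCA1, RBBP8 and RAD52) have a copy by name in the annotation that could split their reads. The FANCD2 antisense neighbour FANCD2OS was at 0 counts in every library. POLG, opposite FANCI, fell as FANCI did in 6WP against AM (-0.46, adjusted p = 0.0297), and LRRC59, opposite EME1, fell too (-0.80, adjusted p = 0.00962). GAS2, opposite FANCF, was higher in 6WP than in AM cells (0.97, adjusted p = 0.00763), the same sign as the FANCF estimate, and LRRC41, opposite RAD54L, was higher (0.39, adjusted p = 0.044) where RAD54L fell.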

How the data were processed

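The authors extracted total RNA from 22Rv1 cells (3 groups, 2 libraries each), prepared stranded libraries and obtained single end reads. Per the labels and the methods, reads were aligned to hg38 with STAR 2.5.3a and assembled with StringTie 1.3.3, and featureCounts 1.5.3 is among the tools listed. The counting strand setting and annotation are not given in the sources used here. The deposited values are raw, unnormalized counts for each gene symbol.

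Genes were kept by filterByExpr, TMM factors were computed, and a quasi-likelihood model of the 3 groups, with no covariate, used all 6 libraries (R 4.3.3, edgeR 4.0.16, limma 3.58.1; common dispersion 0.0173). Tests were two-sided, with Benjamini-Hochberg adjustment over 14672 genes and a threshold of 0.05. SE is the absolute log2 fold change divided by the root of F. The steps were tested on simulated data. Alternatives were DESeq2 size factors, upper quartile or library size scaling, no filter beyond 1 count, at least 10 counts in every library, DESeq2 1.42.0 Wald and edgeR likelihood ratio tests, fits to the groups compared, a replicate block and each library left out.

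The 36 genes and the lists were chosen with earlier results of these data known. Genes called in a comparison were named, and where more than 12 were called the 12 with the largest fold change, and MUS81, GEN1, FANCC and FANCL were added after their values were seen. Up to 5 called genes of each other list were named, to which ERCC1 was added in the same way. Libraries are labelled biological replicates, but separate cultures are not stated, so p-values measure the spread between these samples. Positions and transcript lengths came from GENCODE release 44, promoters from RefSeq on GRCh38.p14. A few genes of the lists are counted in them but not reported here by name.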

Additional observations from a re-analysis of the deposited data

How the results depend on the processing

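No called gene changed direction in any of the 15 settings, but counts of calls depended on which libraries were fitted. Of the 36 genes, 1 was called in 6WP against WT, 2 without a filter on low counts, 3 by the DESeq2 Wald test, 3 by the edgeR likelihood ratio test and 0 in a fit to the groups compared, and 0 to 23 with 1 library left out. In 6WP against AM 18 were called, 11 in a fit to the groups compared, and 1 to 30 with 1 library left out. In AM against WT 7 were called, 4 with upper quartile scaling, 4 with library size only, 24 in a fit to the groups compared, and 0 to 24 with 1 library left out. The median of the 36 minus that of all genes was -0.23, -0.71 and 0.44, and with 1 library left out it ranged from -0.47 to 0.01 in 6WP against WT, with 0.01 reached without 6WP replicate 2, and from -1.01 to -0.47 in 6WP against AM. With a replicate block 1, 21 and 8 genes were called, beside 393, 3069 and 2485 over all genes. The medians were then -0.25, -0.72 and 0.45. Deviations of same-numbered libraries correlated at 0.087, -0.021 and 0.04, so the numbers were not taken as pairs. Outside the left-out libraries and the fits to the groups compared, RAD54L lost its call in AM against WT with at least 10 counts in every library, and RAD54L, RMI1 and FANCD2 lost theirs under upper quartile and library size scaling. The cause of these changes was not tested. With 2 libraries per group the spread of each group rests on 1 difference, and all 36 genes lay at 4.51 CPM or above, over the floor of 3 counts.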
